A study of Mus musculus with 74 samples.

Results

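Of 42572 stretches of open chromatin found in brown adipocytes, 11594 lay away from annotated gene starts and were open in white adipocytes too, and their daily profile in both fat depots is described here. They were taken from the list of brown adipose tissue (BAT) regions by 3 conditions. The distance to the nearest transcription start site had to exceed 1000 bp, the annotation could not be promoter, and at least 75 bp had to overlap a region of the list of inguinal white adipose tissue (WAT), which held 25050. The choice used position and the presence of a region in both lists, and no time of day. The remaining BAT regions that serve as comparison are 18433 distal ones with no such WAT partner and 10032 at or near a start site with a WAT partner.

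Accessibility was measured by ATAC-seq, in which a transposase cuts open chromatin and the cuts are sequenced, in 18 BAT and 18 WAT libraries. All came from mice of one strain, Adiponectin-Cre:NuTRAP, in which Cre driven by the Adiponectin promoter turns on fluorescent tags on nuclei and ribosomes of adipocytes. Nuclei of brown adipocytes (BAT) and of white adipocytes (inguinal WAT) were sorted by flow cytometry from snap-frozen tissue at Zeitgeber times (ZT, hours after lights on) ZT1, ZT5, ZT9, ZT13, ZT17 and ZT21, with 3 libraries per depot and time. Ribosome-bound RNA from the same strain was sequenced in 17 BAT and 18 WAT libraries, and binding of BMAL1 in inguinal WAT at ZT4 in 2 libraries from C57BL6J mice. The labels give no diet, sex, age or light schedule, so the dark phase is taken, by convention, to cover ZT13, ZT17 and ZT21. Whether the 3 libraries of a time come from different animals is not stated either, and the p-values measure the spread between libraries, which may be technical. Tag counts come from sorted pools of nuclei, in which fewer nuclei with an open site and less openness per nucleus cannot be told apart.

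Distal open regions of this kind are mostly enhancers, where transcription factors bind and act on genes that can lie far away. In adipocytes, PPARG, C/EBP, EBF and NF1 factors keep many of them open, and brown and white fat cells share a large part of this repertoire. The circadian clock adds daily binding of BMAL1 with CLOCK, of the repressors REV-ERB, PER and CRY, and of hormone-driven factors such as the glucocorticoid receptor, which gains ligand around waking. A region is named below by its nearest gene, which is a label of position and need not be its target.

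Sequence was available for members that lie inside the window around a RefSeq gene start, on GRCm38.p6, the mm10 build of the files. Such a window holds 250 bases before and 50 after the start. Of the 11594 regions, 126 lay wholly inside one, all at starts that the deposited annotation does not use, and 7 of these had a daily rhythm in both depots. Of these 7, 4 held a motif searched, and the 3 of them with the largest rhythm are shown. Each runs 5′ to 3′ on the strand of the RefSeq gene, and capitals mark the motif letters found.
Zfp648 region, chr1:154117831-154117981, minus strand: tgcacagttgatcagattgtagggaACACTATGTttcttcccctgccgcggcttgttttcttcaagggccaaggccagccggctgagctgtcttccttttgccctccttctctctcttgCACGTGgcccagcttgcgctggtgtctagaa
Col15a1 region, chr4:47209660-47209810, minus strand: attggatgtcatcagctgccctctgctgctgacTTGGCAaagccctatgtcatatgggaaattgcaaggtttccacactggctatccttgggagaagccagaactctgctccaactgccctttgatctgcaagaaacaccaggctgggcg
Camk2d region, chr3:126668964-126669114, minus strand: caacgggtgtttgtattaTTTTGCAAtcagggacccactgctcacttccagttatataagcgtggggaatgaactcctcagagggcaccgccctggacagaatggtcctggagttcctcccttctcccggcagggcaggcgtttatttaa
The first base printed in genome order is the one after the start coordinate. The capitals in the Zfp648 region mark an E-box, CACGTG, to which BMAL1 with CLOCK is known to bind, and a glucocorticoid element, ACANNNTGT. In the Col15a1 region they mark an NF1 site, TTGGCA, and in the Camk2d region a C/EBP site, TTGCNNAA, read on the other strand. In all, 13 motifs were searched.

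The Zfp648 region lay between genes, and BMAL1 was called over it in WAT with a peak score of 9.93 in the authors' list. In BAT its level in tags per 1000000 tags in regions (CPM) was 14.2, 18.7 and 21.8 at ZT1, 16.5, 17.8 and 17.6 at ZT5, 28.1, 23.1 and 25.1 at ZT9, 21.6, 21.7 and 27.6 at ZT13, 13.1, 11.5 and 11.6 at ZT17 and 12.3, 9.25 and 11.2 at ZT21. In WAT it was 34.4, 36.3 and 32 at ZT1, 43.8, 31.5 and 35.4 at ZT5, 46.9, 45 and 41.8 at ZT9, 44.9, 44 and 38.8 at ZT13, 32, 35.9 and 33.4 at ZT17 and 16, 17.3 and 16.1 at ZT21. All 3 libraries of ZT21 were below every library of ZT5, ZT9 and ZT13 in both depots. A cosine of 24 h fitted to the counts gave a log2 difference between peak and trough of 1.10 ± 0.18 (SE) in BAT with a peak at ZT8.7 (adjusted p = 0.00107, edgeR), and of 1.00 ± 0.17 in WAT with a peak at ZT9.4 (adjusted p = 8.88e-04).

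The Col15a1 region, in an intron of a basement membrane collagen gene, ran the opposite way. In BAT it held 17, 14.5 and 14.3 at ZT1, 8.17, 6.01 and 8.09 at ZT5, 8.73, 8.09 and 9.96 at ZT9, 10.2, 12 and 9.92 at ZT13, 12.3, 13 and 11.3 at ZT17 and 13.3, 16.5 and 23.1 at ZT21, in CPM. In WAT it held 39.9, 37.9 and 30.03 at ZT1, 25.8, 19.7 and 31.6 at ZT5, 17.6, 25.1 and 19.8 at ZT9, 27.4, 30.8 and 28.2 at ZT13, 35.6, 49 and 41.4 at ZT17 and 46.9, 42.8 and 63.7 at ZT21. The ZT21 libraries exceeded every ZT5 and ZT9 library in both depots. The peak-to-trough difference was 1.07 ± 0.18 in BAT, peaking at ZT20.7 (adjusted p = 0.00137), and 1.19 ± 0.15 in WAT, peaking at ZT20.2 (adjusted p = 1.44e-05). The Camk2d region, in an intron of a calcium-dependent kinase gene, peaked at ZT11.9 in BAT and ZT10.2 in WAT, with differences of 0.55 in BAT and 0.45 in WAT.

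Among the 126 members with sequence, 4 (3.17%) held the E-box on either strand, against 4.30% of 32815 start windows cut to the same 150 bases. EBF sites (CCCNNGGG) were in 15.1% of the members and 7.73% of the windows. Single NF1 sites were in 12.7% and 7.04%, C/EBP sites in 9.52% and 5.47%, and the nuclear receptor site AGGTCA in 11.1% and 8.59%. The D-box TTATGTAA was in 0 members and 0.50% of windows, and the CRE TGACGTCA in 0 members and 1.36% of windows. These counts describe few regions, all near gene starts, and the other 11468 members were not searched.

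BAT libraries held 3959380 to 12811200 tags in their regions and WAT libraries 1623010 to 5294920, so single WAT values carry more counting error. The members took 29.6% to 32.0% of the tags in BAT and 37.4% to 40.4% in WAT. The median correlation of log levels over members was 0.951 between libraries of one time in BAT and 0.872 in WAT, and 0.901 and 0.780 between times. The first principal component, with 26.8% of the variance of the members in BAT and 24.5% in WAT, set the same 7 libraries apart in both depots by time and replicate number (ZT5 replicates 1 and 2, ZT9 replicates 1 and 3, ZT17 replicate 1, ZT21 replicates 1 and 2). At the region near B4galt1 (chr4:40870316-40870466), a galactosyltransferase gene, these 7 libraries held 20.8 to 45.6 CPM in BAT, against 1.80 to 8.37 CPM in the other 11. In WAT they held 37.0 to 71.5 CPM, against 2.79 to 13.4 CPM. The region was picked, after its values were seen, for its large weight on this component in both depots. The gap between the groups therefore follows from the choice. The 7 libraries are those on one side of the component, and in WAT the nearest scores were 3.19 (ZT17 replicate 1) and -2.71 (ZT5 replicate 3). The region was not called rhythmic in either depot. Counts over all members and over gene lists are also given without these 7 libraries. That setting leaves only replicate 3 at ZT5, replicate 2 at ZT9 and replicate 3 at ZT21 in each depot. It keeps replicates 2 and 3 at ZT17 and every replicate at ZT1 and ZT13. A count or peak time that changes under it may follow from the fewer libraries, which was not tested.

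Introns held 5572 of the members (48.1%) and intergenic sequence 5272 (45.5%), with 254 at transcription ends, 230 in exons, 175 in 3′ UTRs, 70 in non-coding transcripts and 21 in 5′ UTRs. Repeats covered 1486 of them and CpG islands 454. They lay nearest to 5895 genes, 410 of which had 5 or more members. The median distance to a start site was 22785.5 bp, with a range of 1002 to 1278314 bp. Every region is 150 bp wide, and the median overlap with the WAT partner was 145 bp. Levels were moderate, with a median of 22.5 CPM in BAT (7.06 to 466) and 28.4 CPM in WAT (16.4 to 3632).

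About 1 member in 5 changed with the time of day in each depot. In BAT, 2366 of 11594 (20.4%) were called rhythmic at an adjusted p under 0.05 (edgeR), against 18.9% of all BAT regions. In WAT, 2517 (21.7%) were called, against 16.2% of all WAT regions. Distal BAT regions with no WAT partner were called in 21.6% of cases and shared regions at or near start sites in 13.7%. In the WAT list the figures were 32.2% for distal regions with no BAT partner and 5.81% for shared regions at or near start sites. The called members had a median peak-to-trough difference of 0.57 log2 units in BAT (0.16 to 2.81) and 0.68 in WAT (0.22 to 2.67), and those not called of 0.22 and 0.27. Without the 7 libraries that stood apart, 1686 members were called in BAT and 1442 in WAT. The authors' deposited table, which used JTK_CYCLE, had a q under 0.05 for 1042 of 11590 matched members in BAT, 994 of them also called here, and for 1305 in WAT, 1260 of them also called here. Just inside the limits of the choice, 16 of 92 members just over 1000 bp from a start (17.4%) were rhythmic in BAT, and just outside, 10 of 75 regions at 900 to 1000 bp (13.3%). Of members with 75 to 84 bp of overlap 36 of 152 were (23.7%), and of regions with 65 to 74 bp 16 of 62 (25.8%).

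With all libraries, the bin from ZT18 to ZT22 held the most peaks in both depots, and in WAT it did not without the 7 libraries that stood apart. Of the 2366 BAT calls, 928 peaked between ZT18 and ZT22 and 541 between ZT22 and ZT2, and no other 4 h bin held more than 270. Of the 2517 WAT calls, 930 peaked between ZT18 and ZT22 and 637 between ZT10 and ZT14, while only 77 did so between ZT2 and ZT6. The BAT peaks of shared regions near start sites lay elsewhere in the day: of 1374 called, 620 fell between ZT2 and ZT6 and 551 between ZT6 and ZT10. This distribution depended on how the libraries were scaled. Scaled on all regions, 62.1% of BAT calls and 43.4% of WAT calls peaked between ZT18 and ZT2. Scaled on the members alone, the shares were 39.6% of 2277 BAT calls and 37.2% of 2423 WAT calls, and the bin from ZT6 to ZT10 grew to 515 and 516 calls. With offsets that vary with level they were 62.9% and 41.5%. Leaving out the 7 libraries gave 67.8% of 1686 BAT calls and 30.7% of 1442 WAT calls. The WAT bin from ZT10 to ZT14 then held the most calls, 489, against 321 between ZT18 and ZT22, while in BAT the bin from ZT18 to ZT22 still held the most, 594. With the 7 libraries left out, replicate 3 alone stood for ZT21 in each depot. The share of all tags that the members took varied with time as well. It was 31.2% to 32.0% in the ZT21 libraries of BAT and 29.6% to 29.8% in those of ZT5. In WAT it was 37.4% to 38.4% at ZT1 and 39.9% to 40.4% at ZT17.

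**Figure D1:**
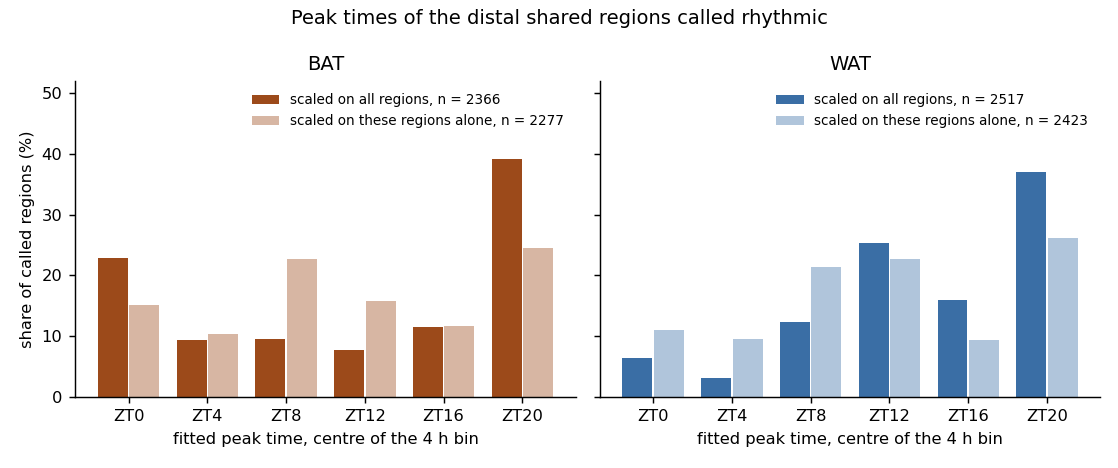
Share of called members, in percent, by fitted time of peak, in 6 bins of 4 h around the day, for BAT and WAT, with libraries scaled on all regions and on the members alone. The bin around ZT20 holds 928 BAT and 930 WAT calls under the first scaling, and 559 and 635 under the second.

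Members near marker genes of other cells were few. Of 7 members nearest to fibroblast and progenitor genes, 6 were called in BAT and 4 in WAT, beside 20.4% and 21.7% of all members. The 4 near Col1a1, which encodes a chain of type I collagen, were called in both depots and peaked between ZT20.6 and ZT23.4 in BAT and between ZT21.1 and ZT21.9 in WAT. The members near Dpp4 and Cd34, both surface markers of progenitors, were called in BAT with peaks at ZT20.0 and ZT21.2. Of these 7 members, leaving out the libraries that stood apart, 4 were called in BAT and 2 in WAT, beside 14.5% and 12.4% of all members. Of 15 members near adipocyte genes, 1 was called in BAT, near Pparg at ZT23.5, and 2 in WAT, both near Acsl1. The 2 members near endothelial genes, 3 near lymphocyte genes, 2 near mammary epithelial genes and 1 near a muscle gene were called in neither depot, and no member lay nearest to a gene of the macrophage list. In the RNA libraries the summed level of the fibroblast list was 8.48 to 57.7 CPM in BAT and 94.5 to 894 CPM in WAT, beside 32540 to 73760 and 8405 to 65476 CPM for the adipocyte list. In WAT the fibroblast sum was highest at ZT1 (525 to 894 CPM) and lowest at ZT17 (94.5 to 283 CPM), and no gene of the list was called rhythmic. Macrophage genes summed to 7.84 to 12.8 CPM in BAT and 27.9 to 181 CPM in WAT, with no gene called. In WAT 2 of 7 skeletal muscle genes were called, and their list summed to 161 to 387 CPM at ZT5 and 228 to 520 CPM at ZT9, against 5.84 to 143 CPM at the other times. Of 7 lymphocyte genes tested in WAT 2 were called, with sums of 50.02 to 298 CPM. In BAT 0 of 7 muscle genes were called, with sums of 27.2 to 759 CPM. The part of these cells in the peak times was not tested.

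Where both depots were called, their fitted peaks mostly lay close together. In all, 1062 members (9.16%) were called in both, 44.9% of the BAT calls and 42.2% of the WAT calls, 1304 in BAT only, 1455 in WAT only and 7773 in neither. A call in one depot only is not a tested difference. Of the 1062, 1014 (95.5%) had fitted peaks within 4 h of each other and 772 within 2 h, against 65.2% within 4 h over all members. The median absolute gap was 1.25 h, and the WAT peak was the later one in 36.6%. Scaling on the members alone gave 96.3% within 4 h of 1009 called in both, and leaving out the 7 libraries gave 95.8% of 472. The 1 region with a gap over 8 h lay near Mtch1, a mitochondrial carrier gene, and was singled out after its value was seen. Across the 11594 members, which share libraries within a depot, the Spearman correlation between BAT and WAT was 0.40 for the peak-to-trough difference, 0.55 for the dark minus light difference and 0.59 for the mean level. BAT and WAT libraries of one time and replicate number deviated together (median correlation 0.30, against -0.06 for other numbers). The depots are therefore not independent in these figures, and the part of this in the closeness of the peaks was not tested.

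**Figure D2:**
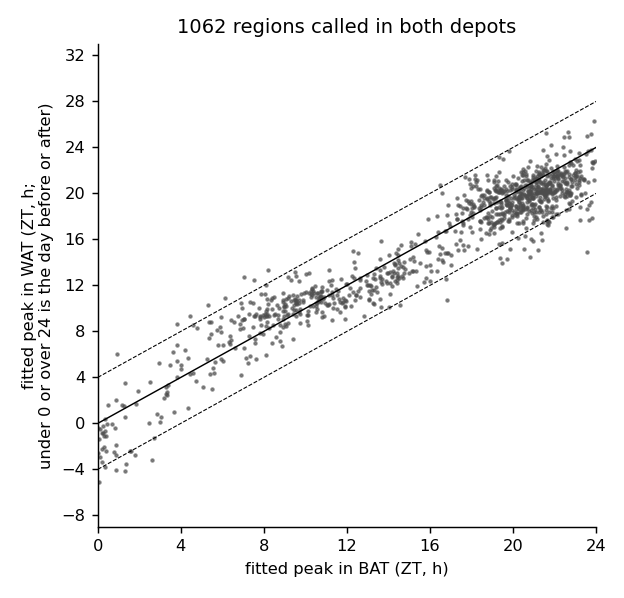
Fitted time of peak in WAT against that in BAT for the 1062 members called in both depots, in hours of Zeitgeber time, with the line of equal times and dashed lines 4 h to either side. Of these, 1014 lie within the dashed lines, allowing for the turn of the day.

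Ranked by the smaller of the 2 peak-to-trough differences, the largest rhythm shared by both depots belonged to a region in an intron of Hcls1 (chr16:36945057-36945207), which encodes a cortactin-like actin regulator of blood cells. In BAT it held 2.54, 2.86 and 3.38 at ZT1, 10.4, 12.2 and 7.56 at ZT5, 14.4, 11.8 and 13.9 at ZT9, 15.7, 19 and 21 at ZT13, 8.76, 4.33 and 5.20 at ZT17 and 1.29, 2.31 and 4.70 at ZT21, in CPM. In WAT it held 8.91, 12.4 and 10.5 at ZT1, 20.9, 18.6 and 28.9 at ZT5, 36.4, 46.3 and 27.5 at ZT9, 37.1, 40.7 and 32.4 at ZT13, 22.1, 9.12 and 16.7 at ZT17 and 4.52, 4.64 and 4.95 at ZT21. Every ZT13 library exceeded every ZT1 and ZT21 library in both depots, with no overlap. The peak-to-trough difference was 2.81 ± 0.29 in BAT at ZT10.5 (adjusted p = 1.63e-05, edgeR) and 2.66 ± 0.25 in WAT at ZT10.2 (adjusted p = 1.09e-06). The RNA of Hcls1 was not called in either depot (adjusted p = 0.488 in BAT and 0.591 in WAT).

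A second daytime region lay 76163 bp from the start of Swap70 (chr7:110297791-110297941), which encodes a signalling protein best known from B cells. In BAT it held 6.09, 6.67 and 4.43 at ZT1, 15.8, 14.3 and 12.6 at ZT5, 18.1, 12.6 and 13.1 at ZT9, 7.21, 8.37 and 11.1 at ZT13, 11.7, 3.62 and 4.19 at ZT17 and 4.21, 3.76 and 4.01 at ZT21, in CPM. The WAT libraries held 7.99, 7.97 and 3.12 at ZT1, 36.9, 47 and 35.9 at ZT5, 55.7, 38.4 and 42.9 at ZT9, 40.5, 24.3 and 24.3 at ZT13, 22.9, 12.5 and 13.2 at ZT17 and 9.46, 8.85 and 7.42 at ZT21. All ZT5 and ZT9 libraries were above all ZT1 and ZT21 libraries in both depots. Its peak-to-trough difference was 1.90 ± 0.26 in BAT at ZT8.2 and 2.67 ± 0.36 in WAT at ZT9.3 (adjusted p = 2.41e-04 in BAT and 2.72e-04 in WAT). Swap70 RNA was called in BAT with a peak at ZT12.2 and not in WAT.

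A night region lay in an intron of Gpat3 (chr5:100880317-100880467), a glycerol-3-phosphate acyltransferase that makes the first acylated intermediate of triglycerides. In BAT it held 14.7, 15.2 and 18.2 at ZT1, 8.35, 11.7 and 8.63 at ZT5, 9.78, 7.39 and 8.72 at ZT9, 5.17, 5.58 and 5.64 at ZT13, 7.56, 17.3 and 10.1 at ZT17 and 22.8, 24 and 20.9 at ZT21, in CPM. WAT levels were 54.7, 52.2 and 54.6 at ZT1, 29.7, 27.6 and 34.3 at ZT5, 27.2, 21.6 and 13.8 at ZT9, 26.1, 24.8 and 28.2 at ZT13, 46.4, 38.2 and 40.04 at ZT17 and 64.6, 57.5 and 55 at ZT21. The ZT21 libraries lay above all libraries of ZT5, ZT9 and ZT13 in both depots, and in BAT above all others. The peak-to-trough difference was 1.68 ± 0.23 in BAT at ZT22.5 and 1.52 ± 0.12 in WAT at ZT21.8 (adjusted p = 1.92e-04 in BAT and 2.38e-08 in WAT). Gpat3 RNA was called in WAT, peaking at ZT20.4 with a log2 peak-to-trough difference of 2.21, and was not called in BAT (adjusted p = 0.913).

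**Figure D3:**
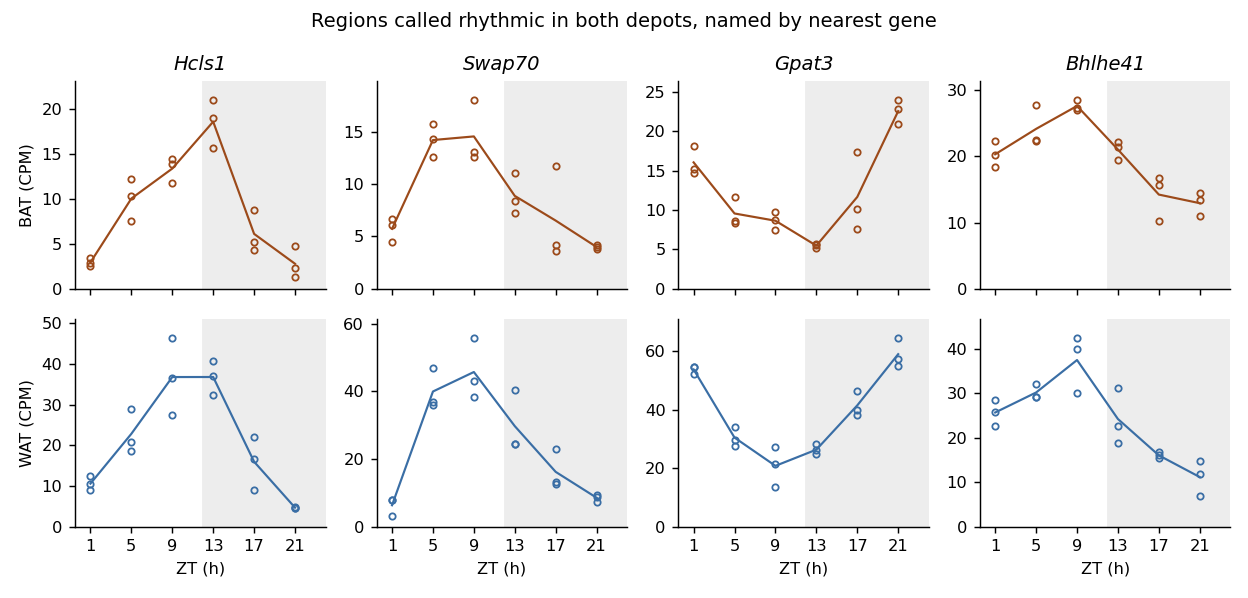
Level in CPM against Zeitgeber time for 4 members called in both depots, near Hcls1, Swap70, Gpat3 and Bhlhe41, with 1 circle per library, lines through the means of 3 libraries and the dark phase shaded. The Hcls1, Swap70 and Bhlhe41 regions are high at ZT9 and low at ZT21, and the Gpat3 region is highest at ZT21.

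Of the other 9 regions with the largest rhythm in both depots, 4 peaked between ZT9 and ZT12. They lay near Zbtb16 (1.60 in BAT and 1.81 in WAT), a transcription factor induced by glucocorticoids, near Epn2 (1.49 in BAT and 1.61 in WAT), an endocytic adaptor, near Klhl29 (1.45 in BAT and 1.98 in WAT, in a repeat) and near Tns1 (1.42 in BAT and 1.68 in WAT), a focal adhesion protein. The region near Snrnp40, a splicing factor, came later, at ZT13.7 in BAT and ZT12.6 in WAT, with 1.73 in BAT and 2.01 in WAT. The region near Phf2, a histone demethylase, peaked in the morning, at ZT3.3 in BAT and ZT2.7 in WAT, with 1.59 in BAT and 1.86 in WAT. All 3 ZT1 libraries at the Phf2 region (23.1 to 27.8 CPM in BAT and 32.6 to 49.5 CPM in WAT) exceeded all other libraries of the depot. Night peaks belonged to regions near Gm15326 (1.52 in BAT and 2.33 in WAT) and Rpl31 (1.44 in BAT and 1.70 in WAT), at ZT21.8 in BAT and ZT20.9 in WAT and at ZT21.2 in BAT and ZT18.8 in WAT. A region near G530011O06Rik on chromosome X (2.09 in BAT and 1.68 in WAT) lies in repeated sequence, so its tags may be shared with copies, and its WAT call was lost in 10 of 26 alternatives.

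Each depot by itself had further large rhythms. In BAT the largest beyond those named were near BC051665 (1.98 at ZT21.9), Cuedc1 (1.86 at ZT10.3), Epas1 (1.84 at ZT7.6), which encodes the hypoxia factor HIF-2α, Rnf146 (1.76 at ZT21), a ubiquitin ligase, and Chn1 (1.75 at ZT14), a GTPase-activating protein, the last of them in a repeat. The region near Cuedc1 held 13.7, 14.7 and 16.1 at ZT1, 23.8, 27 and 27.5 at ZT5, 32.4, 29.1 and 29.7 at ZT9, 34.6, 37.4 and 40.1 at ZT13, 19.1, 18.5 and 25 at ZT17 and 6.31, 5.78 and 10.2 at ZT21, in CPM in BAT, with all ZT9 and ZT13 libraries above all ZT1 and ZT21 libraries. In WAT they were near Htra3 (2.10 at ZT9.8), Ttc25 (2.09 at ZT11.9), Isca2 (2.05 at ZT10.6), an assembly factor of iron-sulphur clusters, Tob2 (1.89 at ZT11.3), an antiproliferative protein, and Sik1 (1.85 at ZT10.5), a kinase induced by cAMP. All of these WAT peaks lay between ZT9.8 and ZT11.9. Of the 5 WAT regions, 4 were called in BAT too, and the one near Sik1 was not (adjusted p = 0.223).

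Set as dark against light, 1506 members changed in BAT and 1076 in WAT. In BAT 954 were higher in the dark, 8.23% of members against 8.46% of all BAT regions, and 552 were lower, 4.76% against 6.09%. In WAT 832 were higher in the dark, 7.18% against 4.45% of all WAT regions, and 244 were lower, 2.10% against 2.62%. The split by direction moved with the scaling: on the members alone 761 were higher and 764 lower in BAT, and 556 higher and 651 lower in WAT. That scaling shifted the median member by -0.02 log2 units in BAT and by -0.07 in WAT. Of 392 members called in both depots, 391 moved the same way, 263 of them higher in the dark. Without the 7 libraries, 620 were higher and 374 lower in BAT, and 136 higher and 74 lower in WAT.

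Clock genes had 39 members near 13 of 19 listed genes, of which 11 were called in BAT (28.2%), 13 in WAT (33.3%) and 4 in both. For this list and those below, the shares over all members were 20.4% in BAT, 21.7% in WAT and 9.16% in both. The region 9515 bp from Bhlhe41 (chr6:145855830-145855980), which encodes the clock repressor DEC2, held 22.3, 20.2 and 18.4 at ZT1, 22.5, 27.7 and 22.3 at ZT5, 27.3, 28.5 and 27 at ZT9, 22.2, 19.5 and 21.4 at ZT13, 15.7, 10.2 and 16.8 at ZT17 and 14.4, 13.4 and 10.9 at ZT21, in CPM in BAT. The WAT levels were 25.8, 22.7 and 28.5 at ZT1, 29.2, 29.1 and 32.2 at ZT5, 39.9, 30.01 and 42.4 at ZT9, 18.8, 22.6 and 31.2 at ZT13, 16, 15.4 and 16.7 at ZT17 and 6.99, 14.8 and 11.7 at ZT21. The ZT9 libraries exceeded all ZT17 and ZT21 libraries in both depots. Its peak-to-trough difference was 1.08 ± 0.13 in BAT and 1.45 ± 0.19 in WAT, with peaks at ZT7.5 in BAT and ZT7.4 in WAT (adjusted p = 7.10e-05 in BAT and 3.86e-05 in WAT, edgeR). Bhlhe41 RNA was called in BAT with a peak at ZT11.6 and was not called in WAT (adjusted p = 0.0982, edgeR). The region 1402 bp before Npas2, a partner of BMAL1, had 1.35 at ZT0.11 in BAT and 1.54 at ZT21.1 in WAT. An intronic region of Cry1, a repressor of BMAL1, had 1.44 at ZT19.4 in BAT and 1.03 at ZT17.8 in WAT. Both Nr1d1 regions, near the gene of REV-ERBα, were called in BAT with 0.85 at ZT6.1 and 0.23 at ZT4.8, and in WAT the larger one had 0.21 at ZT4.9 without a call (adjusted p = 0.563). A region 3782 bp before Per1, a repressor, was called in BAT with 0.18 at ZT3.8. Regions near Arntl, the BMAL1 gene, Nfil3 and Tef, a repressor and an activator of D-box elements, were called in WAT and not in BAT. The direct test between depots called a difference of rhythm at 0 of the 39 members, beside 1.60% of all members. With the 7 libraries left out, 8 clock gene members were called in BAT (20.5%), 8 in WAT (20.5%) and 3 in both. That setting called 14.5% of all members in BAT and 12.4% in WAT.

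The thermogenic and brown fat list had 25 members near 13 of 20 genes. BAT calls were 7 (28%) and WAT calls 10 (40.0%), beside 20.4% and 21.7% of all members, and 5 were called in both. The region 10035 bp from Adrb3, the beta-3 adrenergic receptor through which noradrenaline starts lipolysis and heat production, held 22.8, 17.9 and 27.2 at ZT1, 8.72, 6.67 and 11 at ZT5, 7.36, 8.66 and 10.2 at ZT9, 7.02, 6.73 and 7.97 at ZT13, 8.56, 13.9 and 10.6 at ZT17 and 14.2, 17.1 and 21.4 at ZT21, in CPM in BAT. In WAT it held 38.7, 45.4 and 42.5 at ZT1, 16, 17.3 and 25.7 at ZT5, 24.6, 18.6 and 23.7 at ZT9, 18.3, 16.6 and 20.5 at ZT13, 22.9, 25.1 and 23.3 at ZT17 and 40.7, 41.3 and 37.7 at ZT21. In both depots every library of ZT1 and ZT21 was above every library of ZT5, ZT9 and ZT13. It had 1.58 at ZT23.1 in BAT and 1.24 at ZT22.9 in WAT (adjusted p = 1.94e-04 in BAT and 4.65e-05 in WAT). Adrb3 RNA was called in BAT with a peak at ZT0.075 and was not called in WAT (adjusted p = 0.892, edgeR). The members near Ppargc1a, a coactivator of mitochondrial genes, near Cidea, a lipid droplet protein of brown fat, and near Irf4, a factor induced by fasting, were called in both depots, with 0.54 at ZT10.7 in BAT and 0.59 at ZT11 in WAT for Ppargc1a, 0.34 at ZT18.7 in BAT and 0.65 at ZT18 in WAT for Cidea and 0.88 at ZT0.37 in BAT and 0.78 at ZT22.9 in WAT for Irf4. A region 19695 bp from Ucp1, the uncoupling protein of brown fat mitochondria, was called in BAT with 0.74 at ZT22, and had 0.35 at ZT21.1 in WAT without a call. Of the 25 members of this list, 0 had a difference of rhythm called when the depots were tested directly. The members near Esrra, a nuclear receptor, and Ebf2, which marks brown precursors, included calls in WAT at ZT17.2 and ZT13.2. With the 7 libraries left out, 6 members of the list were called in each depot (24%) and 4 in both. All members then had 14.5% called in BAT and 12.4% in WAT.

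Fatty acid and triglyceride synthesis had 53 members near 17 of 23 genes. BAT calls were 9 (17%) and WAT calls 17 (32.1%), beside 20.4% and 21.7% of all members, and 8 were called in both. Of the 17 WAT peaks, 16 lay between ZT12 and ZT24, as did 8 of the 9 in BAT. Over all members, 1729 of 2517 WAT calls and 1657 of 2366 BAT calls peaked there. Scaled on the members alone, 11 of 14 WAT peaks and 6 of 10 BAT peaks lay there, beside 1244 of 2423 and 1206 of 2277 over all members called under that scaling. Leaving out the libraries that stood apart, the counts were 10 of 12 in WAT and 11 of 13 in BAT. All members then had 773 of 1442 and 1174 of 1686. A region in an intron of Gpd1, which makes glycerol-3-phosphate, held 27.6, 17.1 and 22.2 at ZT1, 26.3, 32.5 and 29.5 at ZT5, 28.1, 29.3 and 28.1 at ZT9, 35.8, 32.5 and 45.7 at ZT13, 51.9, 56.4 and 58.1 at ZT17 and 28.4, 27.4 and 33.4 at ZT21, in CPM in WAT. The ZT17 libraries stood above all others. Its WAT peak-to-trough difference was 0.97 ± 0.18 at ZT15.5 (adjusted p = 0.00154). In BAT it held 57 to 79.7 CPM, with 0.09 and no call (adjusted p = 0.675). A difference of rhythm between depots was called at 1 of the 53 members of the list. Gpd1 RNA was called in WAT with a peak at ZT15.4 and not in BAT (adjusted p = 0.0771, edgeR). Regions near Fasn, the fatty acid synthase, were called in both depots, with 0.44 at ZT18.4 in BAT and 0.72 at ZT17.6 in WAT for one and 0.43 at ZT19.2 in BAT and 0.43 at ZT17.5 in WAT for the other. Near Lpin1, a phosphatidate phosphatase, 1 region peaked in the night (0.59 at ZT19.5 in BAT and 0.84 at ZT20.3 in WAT) and another before lights off (1.04 at ZT10.7 in BAT and 1.67 at ZT10.9 in WAT). WAT calls also lay near Thrsp, a lipogenic protein, at ZT12.3 and ZT14.3, near Dgat2, which makes triglycerides, at ZT13.8 and ZT17.5, near Gpam at ZT22 and ZT21.9 and near Pcx, the pyruvate carboxylase, at ZT16.5. The RNA of Fasn, Lpin1, Thrsp, Gpam and Pcx was called in WAT, peaking between ZT18.6 and ZT21.3. Dgat2 RNA was not called in either depot (adjusted p = 0.0840 in BAT and 0.134 in WAT, edgeR). In BAT the RNA of Lpin1 and Thrsp was called, at ZT13.8 and ZT17.9, and that of Fasn, Gpam and Pcx was not.

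Lipolysis and lipid droplet genes had 25 members, with 3 called in BAT (12%) and 5 in WAT (20%). All 3 WAT calls near Mgll, the monoacylglycerol lipase, peaked between ZT20.2 and ZT21, the largest with 1.13 ± 0.30 (adjusted p = 0.0320). A region near Lpl, the lipoprotein lipase, was called in both with 0.87 at ZT21.6 in BAT and 0.88 at ZT18.9 in WAT. Adipokine genes had 21 members, with 2 called in BAT (9.52%), near Nrg4 and Vegfa, and 1 in WAT (4.76%), near Nampt. Creatine cycle genes had 6, with 1 called in BAT near Alpl and 1 in WAT near Ckb. Hox and other position genes had 9, with 0 called in BAT and 1 in WAT, near Shox2 at ZT21.7. With the 7 libraries left out, the lipolysis list had 4 calls in BAT (16%) and 3 in WAT (12%), and the adipokine and creatine lists had 0 in WAT. All members then had 14.5% called in BAT and 12.4% in WAT.

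Adipogenic factors had the most members, 108 near 14 of 18 genes, with 22 called in BAT (20.4%), 22 in WAT (20.4%) and 9 in both. Without the 7 libraries the counts were 20 (18.5%), 15 (13.9%) and 4, beside 14.5% of all members in BAT and 12.4% in WAT. Among the 108, the direct test between depots called a difference of rhythm at 4. Zfp423, which keeps adipocytes in a white state, had 4 members called in BAT, all peaking between ZT21 and ZT22.8, and 4 others called in WAT, all peaking between ZT10.3 and ZT14.5. Over all members, 62.1% of BAT calls peaked between ZT18 and ZT2, and 637 of 2517 WAT calls between ZT10 and ZT14. The largest of the WAT set, chr8:87940752-87940902, held 35.9, 34.3 and 28.9 at ZT1, 48.6, 40.4 and 47.2 at ZT5, 46.9, 55.3 and 47.3 at ZT9, 62.4, 44 and 47.8 at ZT13, 54.4, 41 and 37 at ZT17 and 16.4, 19.8 and 17.3 at ZT21, in CPM in WAT. Its ZT21 libraries were below its ZT9 libraries. The peak-to-trough difference there was 1.13 ± 0.21 (adjusted p = 0.00326), beside 0.15 ± 0.14 in BAT (adjusted p = 0.700). Nfia, a factor of the brown fat programme, had WAT calls between ZT9.5 and ZT18.6. Near Klf9, a target of glucocorticoids, 2 members were called in both depots at nearly the same time, with 1.54 at ZT8.9 in BAT and 1.10 at ZT8.4 in WAT for one and 1.06 at ZT8.1 in BAT and 1.07 at ZT8.5 in WAT for the other. Ebf1, a factor that keeps adipocyte enhancers open, had 2 members called in both, with 0.79 at ZT20.2 in BAT and 0.48 at ZT21.3 in WAT and 0.83 at ZT0.86 in BAT and 0.67 at ZT2 in WAT.

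Genes of the glucocorticoid response had 27 members. Of all members 20.4% were called in BAT and 21.7% in WAT, and of these 27, 10 (37%) and 9 (33.3%), with 6 in both. Their WAT peaks lay between ZT8.8 and ZT14.1 when scaled on all regions and between ZT8.3 and ZT13.6 when scaled on the members alone. The largest were near Zbtb16, with 1.53 ± 0.21 at ZT10.8 for a second region, near Tsc22d3, the gene of GILZ, with 1.17 at ZT13.3 in BAT and 1.00 at ZT13 in WAT, and near Errfi1, a brake on growth factor receptors, with 0.40 at ZT9.5 in BAT and 0.99 at ZT9.8 in WAT. In BAT 6 of the 10 peaks lay between ZT12 and ZT24, and 3 of 9 on the members alone. Over all members called in BAT these were 1657 of 2366 and 1206 of 2277. Without the 7 libraries that stood apart, 4 of the 27 were called in BAT (14.8%) and 7 in WAT (25.9%), beside 14.5% and 12.4% of all members. Insulin and feeding response genes had 46 members, with 13 called in BAT (28.3%) and 11 in WAT (23.9%). Near Hk2, the hexokinase of insulin-responsive tissues, 2 members were called in BAT at ZT22.3 and ZT23.3 and 4 others in WAT between ZT9.5 and ZT17.6. When the depots were tested directly, a difference of rhythm was called at 1 of the 46 members. Without the 7 libraries the insulin and feeding list had 10 calls in BAT (21.7%) and 5 in WAT (10.9%). Immediate early genes had 37 members, with 12 called in BAT (32.4%), 10 in WAT (27%) and 7 in both. Their calls without the 7 libraries were 7 in BAT (18.9%) and 2 in WAT (5.41%).

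Between depots, 1364 members differed by at least 2-fold, 702 higher in BAT (6.05% of members, against 3.58% of all shared regions) and 662 lower in BAT (5.71%, against 3.56%). Scaled on the members alone the counts were 570 higher and 798 lower. The largest excess in BAT was at a region 10726 bp from Mirlet7b (chr15:85717970-85718120), in the locus of the let-7b microRNA. Over 18 libraries each, scaled together, it held 120.2 to 155 CPM in BAT (median 132) and 7.62 to 38.8 CPM in WAT (median 22.9). The ranges did not overlap, and the log2 difference was 2.65 ± 0.11 (adjusted p = 9.28e-20, edgeR). A region 43617 bp from Htra3, a secreted protease gene, held 62 to 124 CPM in BAT and 2.71 to 31.6 CPM in WAT, a difference of 2.42 ± 0.11. The next were near Auts2, Mmd2, 2310015D24Rik, Gdpd5, Mapt and Nfia, with differences of 2.18 to 2.12. In WAT, those near Mirlet7b, Htra3, Auts2, 2310015D24Rik, Gdpd5 and Nfia were called rhythmic, and those near Mmd2 and Mapt were not.

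At the lower end, a region near Prtn3, a neutrophil protease gene, held 7.54 to 20.4 CPM in BAT and 48.5 to 101 CPM in WAT, a log2 difference of -2.63 ± 0.09. The other 7 of the 8 lowest lay near Pisd-ps3, Gm5458, 4933422A05Rik and Mir101c, in repeated or unplaced sequence where tags may be shared with copies, and are uncertain. Repeats held 72 of the 702 higher members and 103 of the 662 lower ones.

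Members more open in BAT had the highest share of rhythmic calls in WAT among the 3 classes of the depot comparison. Of the 702, 284 (40.5%) were called rhythmic in WAT, beside 172 of the 662 lower in BAT (26.0%) and 2061 of the remaining 10230 (20.1%). The 702 had a median WAT level of 22.9 CPM, beside 28.6 CPM in the remaining members. Their median WAT peak-to-trough difference was 0.56 log2 units, beside 0.39 in the members lower in BAT and 0.32 in the rest. Of the 284, 198 peaked between ZT10 and ZT18, beside 45 of the 172 lower in BAT and 797 of the 2061 others. Scaled on the members alone, these counts were 162 of 262, 29 of 181 and 585 of 1980. The median BAT differences were 0.18 in the 702, 0.53 in the members lower in BAT and 0.26 in the rest. In each depot the class less open there thus had the largest median difference. In BAT the same 702 had 121 calls (17.2%), beside 26.7% of those lower in BAT and 20.2% of the rest. The WAT share was 37.3% with scaling on the members alone, 37.6% with offsets that vary with level and 38.7% with 1 surrogate variable. Without the 7 libraries that stood apart it was 28.8%, beside 10.9% of the rest. These shares are a description of regions that share libraries and were not tested.

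As a share of all tags on members in a WAT library, the 702 regions took 3.76% to 4.20% at ZT1, 4.01% to 4.24% at ZT5, 4.30% to 4.69% at ZT9, 4.53% to 4.89% at ZT13, 4.70% to 4.88% at ZT17 and 4.17% to 4.43% at ZT21. Every library of ZT13 and ZT17 exceeded every library of ZT1, ZT5 and ZT21. In BAT the shares were 9.84% to 9.92%, 10.5% to 10.6%, 10.2% to 10.3%, 10.5% to 10.6%, 10.4% to 10.7% and 9.42% to 10.4% at the same times. In the WAT samples the RNA of 3 brown fat genes, picked after their values were seen, was low at ZT1 too, but not at ZT5. Ucp1 had 13.1, 4.14 and 6.61 CPM at ZT1, and at the other times 15.8 to 144 CPM. Cidea had 29.1 to 65.6 CPM at ZT1 and 80.6 to 395 CPM at the other times, and Cox8b, a respiratory chain subunit of brown fat and muscle, 40.7 to 103 CPM and 93.4 to 446 CPM. At ZT5, where the WAT share of the regions overlapped that of ZT1, Ucp1 had 51.6 to 101 CPM. Cidea then had 232 to 361 CPM and Cox8b 275 to 446 CPM. None of these RNAs was called rhythmic in WAT (adjusted p = 0.524 for Ucp1, 0.623 for Cidea and 0.502 for Cox8b). Other genes of the brown fat list had other fitted times in WAT, such as Dio2, which activates thyroid hormone, at ZT19.98 and Ebf2 at ZT4.5, without a call. The part of these RNAs in the change of these regions was not tested.

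**Figure D4:**
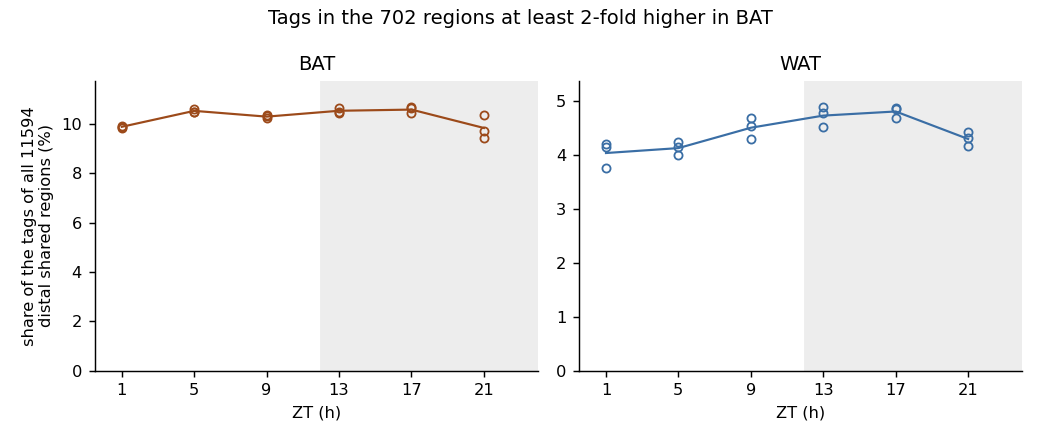
Share of member tags, in percent, taken by the 702 members more open in BAT, against Zeitgeber time, in each BAT library and each WAT library, with lines through the means of 3. In WAT the share is 3.76% to 4.20% at ZT1 and 4.70% to 4.88% at ZT17, and in BAT every library lies between 9.42% and 10.7%.

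Tested directly, the rhythm differed between depots at 185 members (1.60%, against 0.925% of all shared regions). Of these, 146 had the larger peak-to-trough difference in WAT, with 74 WAT peaks between ZT10 and ZT14 and 31 between ZT14 and ZT18. The other 39 were larger in BAT, with 25 BAT peaks between ZT22 and ZT2. The 185 included 66 members at least 2-fold higher in BAT and 14 at least 2-fold lower. Scaled on the members alone, 101 were called, all among the 185. The count depended on single libraries: it was 100 without WAT ZT13 replicate 1. Leaving out the 7 libraries in each depot also gave 100, of which 57 were among the 185. BAT and WAT libraries of one time and replicate number deviated together, with a median correlation of 0.30, against -0.06 for other numbers, which the fit does not use. With time and replicate number as a block, 739 were called, all 185 among them.

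The Mirlet7b region held 85.5, 89 and 86.9 at ZT1, 87.2, 89.9 and 88.5 at ZT5, 83.4, 86.5 and 85.1 at ZT9, 85.6, 87.3 and 101 at ZT13, 90.8, 90.04 and 94.6 at ZT17 and 90.4, 81.8 and 79.7 at ZT21, in CPM in BAT. In WAT it held 12.3, 8.77 and 12.1 at ZT1, 8.75, 15 and 20.4 at ZT5, 21.5, 28.1 and 35.2 at ZT9, 23.3, 30.1 and 32.4 at ZT13, 24, 22.2 and 25.5 at ZT17 and 11.9, 6.96 and 11.1 at ZT21. The WAT libraries of ZT9, ZT13 and ZT17 exceeded all WAT libraries of ZT1, ZT5 and ZT21, while the BAT libraries showed no such order. The peak-to-trough difference was 0.07 ± 0.05 in BAT (adjusted p = 0.556) and 1.69 ± 0.22 in WAT at ZT12 (adjusted p = 2.00e-05). The 2 curves differed with an amplitude of 0.80 ± 0.09 (adjusted p = 1.55e-05, edgeR).

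The Coro2b region (chr9:62526537-62526687), in an intron of an actin-binding coronin gene, was the reverse and had the largest difference. In BAT it held 24.1, 21 and 19.1 at ZT1, 8.72, 7.01 and 10.4 at ZT5, 5.36, 7.28 and 5.40 at ZT9, 7.58, 6.07 and 5.25 at ZT13, 9.35, 9.47 and 11.3 at ZT17 and 12.1, 12.6 and 15.9 at ZT21, in CPM. WAT libraries had 35.6, 29.9 and 26.5 at ZT1, 25.3, 22.8 and 32.2 at ZT5, 28.5, 32.1 and 27.5 at ZT9, 37.9, 27.1 and 31.2 at ZT13, 44.2, 33.6 and 44.4 at ZT17 and 37, 34.1 and 32.8 at ZT21. The BAT libraries of ZT1 stood above all others. In WAT every library of ZT17 and ZT21 was above every library of ZT5 and ZT9, and the region was called there too. The peak-to-trough difference was 1.73 ± 0.20 at ZT23.2 in BAT and 0.53 ± 0.14 at ZT17.7 in WAT, and the difference of the curves had an amplitude of 0.86 ± 0.12 (adjusted p = 2.63e-04). The call held without the 7 libraries near Mirlet7b, Coro2b, Cmklr1, BC051665, H1foo and Rbm38, and was lost near Htra3 and Gadd45g. Near Htra3 the amplitude was 0.79 ± 0.13, near Gadd45g, a stress-response gene, 0.72 ± 0.15, near Rbm38, an RNA-binding protein gene, 0.68 ± 0.10, and near H1foo, a linker histone gene, 0.70 ± 0.11, all with the larger rhythm in WAT. At the Rbm38 region WAT libraries held 12.6 to 19.5 CPM at ZT1 and ZT21 and 37.3 to 51.7 CPM from ZT5 to ZT13, without overlap, and BAT libraries 39.9 to 62.1 CPM over the day. Near Cmklr1, the chemerin receptor gene, and near BC051665 the amplitudes were 0.74 ± 0.17 and 0.71 ± 0.13, with the larger rhythm in BAT, peaking at ZT23.1 and ZT21.9.

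**Figure D5:**
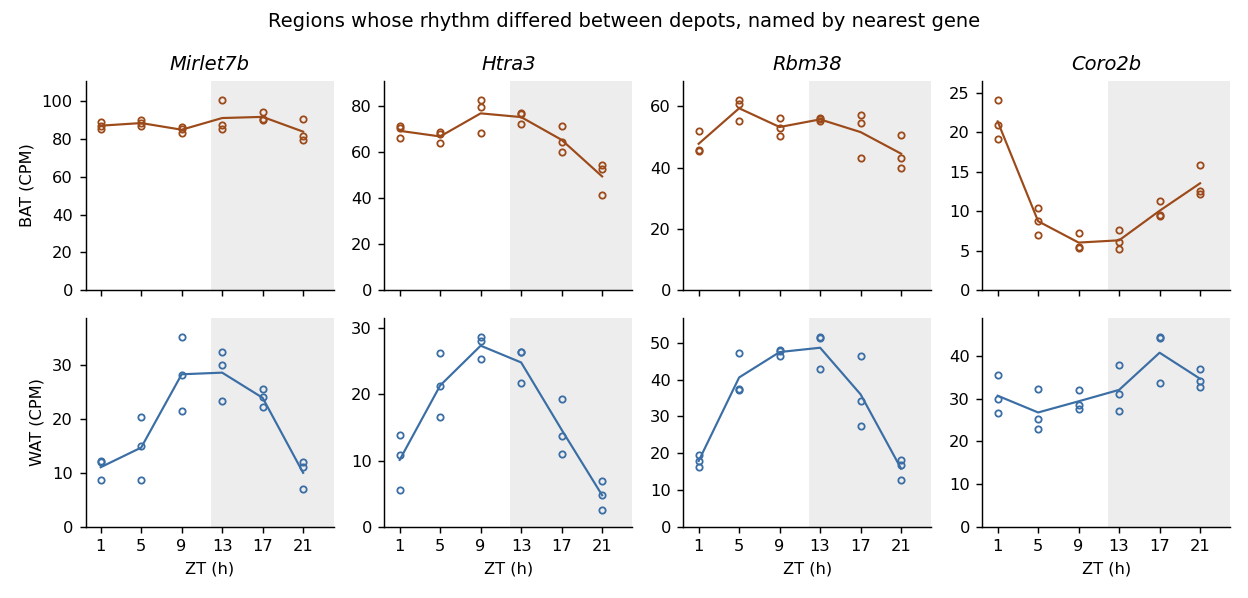
Level in CPM against Zeitgeber time in BAT and WAT for 4 members whose rhythm differed between depots, near Mirlet7b, Htra3, Rbm38 and Coro2b, with 1 circle per library, lines through the means of 3 libraries and the dark phase shaded. WAT varies most at the first 3, and BAT at the Coro2b region.

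BMAL1 bound 1856 of the members (16.0%) in WAT at ZT4, by overlap of at least 75 bp with the authors' pooled peak list, beside 2.75% of the distal BAT regions without a WAT partner and 35.6% of the shared regions near start sites. The 2.75% is in part set by the choice, as those regions lack a WAT partner and BMAL1 was mapped in WAT. Of the bound members, 20.6% were rhythmic in BAT and 22.7% in WAT, beside 20.4% and 21.5% of those without BMAL1. The time of the peak is given by peak score, in 4 sets of 464 members. In the 464 members with the highest peak scores (7.7 to 201.3), 44 of 118 BAT calls (37.3%) peaked between ZT4 and ZT10, beside 12% of the calls without BMAL1. In WAT 37 of 101 (36.6%) did, beside 12.5%. In the 3 sets with lower scores, in ascending order, the share was 19.5%, 16.7% and 37.6% of BAT calls and 16.5%, 20.4% and 18.3% of WAT calls. The 464 with the highest scores were called in 25.4% of cases in BAT and 21.8% in WAT. No difference between the sets was tested. The highest scores, picked after the values were seen, were at Nr1d1 (201.3), Hlf (77.9), a D-box activator, Cry2 (64.4), a BMAL1 repressor, and Lsm3 (61.3), an RNA-processing gene. The Bhlhe41 region described above had 42.8. Levels were higher in bound members, with a median of 37.9 CPM in BAT in those 464 and 21.2 CPM in those without BMAL1.

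The RNA of the nearest genes was set beside the regions. Of 3504 nearest genes tested in BAT, 469 were rhythmic (13.4%, against 8.88% of all BAT genes), with 18.1% of 1082 nearest to a called member and 11.3% of the other 2422. In WAT 373 of 3614 were (10.3%, against 9.21% of all WAT genes), with 11.4% of 1193 and 9.79% of 2421. Where region and gene were both called, 179 of 275 BAT pairs (65.1%) and 100 of 195 WAT pairs (51.3%) peaked within 4 h of each other, and 26 in BAT and 53 in WAT lay over 8 h apart. The RNA peak was the later one in 183 of the BAT pairs and 129 of the WAT pairs, with a median lag of 1.83 h in BAT and 2.02 h in WAT. BAT RNA calls fell to 233 when ZT1 replicate 2 was left out and WAT RNA calls to 138 without ZT21 replicate 3.

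Rhythm varied with position and level. The share called in BAT was 17.7% at 1000 to 5000 bp from a start site, 19.3% to 20000 bp, 20.8% to 100000 bp and 25% beyond, and in WAT 18.9%, 21.4%, 22.1% and 24.7%. Members in CpG islands were called in 19.6% of cases in BAT and 7.27% in WAT. Introns had 20.9% in BAT and 22.5% in WAT, intergenic sequence 20.4% and 21.2%, and repeats 22.7% and 22.7%. Across members the peak-to-trough difference fell with the mean level, with a Spearman correlation of -0.42 in BAT and -0.25 in WAT, where both measures come from the same counts.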

How the data were processed

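ATAC-seq was measured in 18 BAT and 18 WAT libraries, ribosome-bound RNA in 17 and 18, and BMAL1 ChIP-seq in 2. The deposited ATAC values are raw tag counts per 150 bp region, on one mm10 peak set per depot called by HOMER on pooled libraries, per the file headers. The RNA values are estimated counts per gene, deposited without normalization, and were rounded. Bowtie2 2.4.1, HOMER, RSEM 1.3.0, STAR 2.7.5, limma and DESeq2 are listed in the submitters' processing notes, with no order. The BMAL1 peak score is HOMER's for the pooled ChIP libraries, per the file headers. The authors' JTK_CYCLE tables give q-values, the p-value adjusted over regions. HOMER and JTK_CYCLE versions are not given in the sources used here. 1 column of the RNA table belonged to no listed sample and was not used. The RNA JTK_CYCLE tables were not used.

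Counts were fitted with edgeR 4.0.16 in R 4.3.3 (TMM, filterByExpr, quasi-likelihood) on each whole table, with Benjamini-Hochberg adjustment over all regions or genes tested and a call at an adjusted p under 0.05. All members passed the filter. Rhythm was a cosine and sine of 24 h, tested together, with its SE from the delta method. Dark and light were compared through the means of 6 times. Depots were compared over the 21626 regions present in both lists, adjusting for the 6 times, and a call also needed a 2-fold difference. The difference of rhythm was tested as depot by cosine and sine, its size being the amplitude of the difference of the curves. CPM are scaled by TMM within each depot, and over both depots for the depot comparison. Errors are SE from the fits. Tags in regions per library were 3959380 to 12811200 in BAT and 1623010 to 5294920 in WAT. The tests were also run on simulated counts, drawn independently for each region and library. Those counts held neither the first component nor the shared deviations of BAT and WAT libraries, so they cannot check the calls against either.

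Named regions are up to 12 with the largest rhythm in both depots and in each depot (mean of at least 5 CPM), 8 at each end of the depot comparison, 8 of the difference of rhythm, and called or highest members of 11 gene lists. Results for 2 regions are not reported here. Members and lists were chosen with earlier results of these data known. Alternatives were other scalings, filters, DESeq2 1.42.0, a replicate block, other overlaps and distances, and leaving out each library. Scaling on the members alone, 1 surrogate variable (sva 3.50.0) and leaving out 7 libraries were chosen after seeing the data. Figures used Python 3.11.15 and matplotlib 3.10.9.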

Additional observations from a re-analysis of the deposited data

Results flagged for a closer look

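The test of the difference of rhythm itself passed at 185 members. The 8 with the largest amplitude of the difference, in log2 units, lay near Coro2b (0.86), Mirlet7b (0.80), Htra3 (0.79), Cmklr1 (0.74), Gadd45g (0.72), BC051665 (0.71), H1foo (0.70) and Rbm38 (0.68). The rhythm was larger in BAT near Coro2b, Cmklr1 and BC051665 and larger in WAT near the other 5. Of 43 alternatives, the call was lost in 22 near Cmklr1, in 5 near Gadd45g and in 1 near Htra3, that without the 7 libraries that stood apart in each depot, and the other 5 regions stayed called in all of them. Why the depots differ at these regions was not tested.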

How the results depend on the processing

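Of 74 results for single regions, 62 kept their call or lack of it in all alternatives run. Of 2333 alternatives of single results, 61 lost the call, 6 gained it and 0 turned the direction. Counts of members moved by over 1.5 times under the settings named next. Complete overlap, the higher peak scores and the libraries left out use fewer regions or libraries by construction, and for the rest the cause was not tested. With time as a factor, 4265 members were called in BAT. With complete overlap of the 150 bp, which leaves 820 members, rhythm was called at 161 in BAT, at 168 in WAT and at 73 in both, 93 differed between dark and light in BAT and 75 in WAT, 78 between depots and 15 in rhythm between depots. In the 7458 members with the higher BAT peak scores, 1501 were called in BAT and 1674 in WAT. The authors' q gave 1042 in BAT and 1305 in WAT. With the 7 libraries that stood apart left out, WAT calls were 1442, calls in both depots 472, dark and light calls 994 in BAT and 210 in WAT, and differences of rhythm 100, with 57 of the 185 among them. At any fold, 9317 members differed between depots. The difference of rhythm was called at 378 members by DESeq2, 184 of the 185 among them, and at 101 with scaling on the members alone. Genes near members called rhythmic were 859 in BAT and 651 in WAT by DESeq2, and 702 in WAT without a filter.

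Leaving out 1 library gave 1809 to 2476 rhythmic members in BAT, 2058 to 2571 in WAT and 854 to 1088 in both, 1110 to 1678 dark and light calls in BAT, and 1333 to 1398 depot calls. Dark and light calls in WAT ran from 710 without ZT5 replicate 2 to 1279. Differences of rhythm ran from 100 without WAT ZT13 replicate 1 to 233. RNA calls were 233 without BAT ZT1 replicate 2 and 1060 without BAT ZT21 replicate 2, and in WAT 138 without ZT21 replicate 3 and 752 without ZT9 replicate 3. TMM over the members alone, the surrogate variable and the 7 libraries left out were chosen after seeing the data. The other scalings and filters, DESeq2 on the regions other than for the difference of rhythm, 1 surrogate variable, overlap of at least 1 bp and a distance over 5000 bp kept the region counts within 1.5 times.

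Replicate numbers are shared across times and depots. Libraries of the same time and number in BAT and WAT had a median correlation of 0.30 (-0.05 to 0.58, 18 pairs) in their deviations from the time means, and libraries of the same number at other times 0.02 in BAT and 0.05 in WAT. BAT and WAT libraries of the same time and another number had a median of -0.06. The main fits did not take the numbers as pairs, so the tests between depots leave out a pairing that these deviations show. Within a depot the block was the replicate number alone. It gave 2198 rhythmic members in BAT, 2490 in WAT and 990 in both, 1590 and 1166 for dark and light, and 372 BAT and 392 WAT genes. Between depots the block was time and replicate number together. It gave 1366 members that differed between depots and 739 for the difference of rhythm, all 185 among them. Depth limits WAT more, with at least 1623010 tags per library against 3959380 in BAT.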
